A study of Mus musculus with 24 samples.

Results

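The genes described here are 9 enzymes of the methionine cycle and of the one-carbon and methyl transfer steps joined to it: Mat1a, Gnmt, Bhmt, Ahcy, Cbs, Cth, Pemt, Nnmt and Shmt1. They were chosen by name, as all probes on the array whose annotated symbol is 1 of the 9. No cutoff on a measured value was used, but earlier results of these data were known when the choice was made. The array held 18 such probes, of which 16 passed a filter on dim probes, and each of the 9 genes kept at least 1 probe. They are 9 of the 11115 genes tested. Liver RNA of male C57BL/6J mice aged 16 weeks had been hybridised to an Illumina bead array after 10 weeks of feeding, in 24 samples that form 4 groups of 6. The control group had a normal diet and plain water. The high-sugar group had the normal diet with a drink of 23% sugar (w/v), the high-fat group a high-fat diet with plain water, and the high-fat high-sugar group both. The samples of each group are numbered from 1 to 6, and no label says that each came from its own animal. The spread behind every p-value here is that between numbered samples. The labels give neither the kind of sugar nor the composition of the high-fat diet.

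In the methionine cycle, methionine is turned into S-adenosylmethionine, the methyl donor of most methylation reactions. Giving up the methyl group leaves S-adenosylhomocysteine, which is split into adenosine and homocysteine. Homocysteine is either methylated back to methionine, with betaine or a folate as donor, or passed through cystathionine to cysteine, the route called transsulfuration. The liver carries most of the body's methionine metabolism and is the tissue where several of these enzymes, Mat1a, Gnmt and Bhmt among them, are most abundant.

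Hepatocyte markers were measured in all groups: 7 of the 8 listed genes passed the filter and Tat did not. The summed intensity of the 7 was 57002 to 65873 in control and 62805 to 67823 in high-sugar samples. It was 55526 to 60683 in high-fat and 54593 to 61956 in high-fat high-sugar samples, both below every high-sugar sample. With sugar 3 rose and 1 fell on the normal diet, and 1 rose and 1 fell on the high-fat diet. With fat and water 2 rose, with fat and sugar 1 fell, and with both treatments 3 rose and 2 fell. Albumin mRNA was read by a dim probe, with group means of 61 to 152. Of 7 adipocyte markers Cfd was not measured here, Adipoq, Plin1, Fabp4 and Retn did not pass the filter, and Lep and Cidea were tested. The summed intensity of these 2 was 8.1 to 22.1 in control, 16.8 to 44.1 in high-sugar, 8.37 to 25.5 in high-fat and 18.1 to 118 in high-fat high-sugar samples. Cidea, a lipid droplet gene, rose 1.92-fold with sugar on the high-fat diet (mean 6.61 to 48.9, adjusted p = 0.000868, limma) and 2.06-fold with both treatments (adjusted p = 0.000257). The summed intensity of the 3 of 6 pancreatic acinar markers that passed was 3417 to 3943 in control and 5353 to 6266 in high-sugar samples, and 2659 to 3263 in high-fat and 4151 to 5968 in high-fat high-sugar samples. Most of that sum was Amy2a5, an amylase gene, which rose 1.67-fold with sugar on the normal diet (adjusted p = 8.25e-07, limma) and 1.78-fold on the high-fat diet (adjusted p = 8.78e-08). Cela1 rose 1.38-fold with sugar on the normal diet (adjusted p = 0.0163, limma) and fell 1.39-fold with fat and water (adjusted p = 0.0222). It did not pass with sugar on the high-fat diet (adjusted p = 0.216), and Ctrb1, which was dim, passed in none of these. Cpa1 and Prss2 did not pass the filter and Pnlip was not measured here. Macrophage markers (7 of 8 tested) summed to 1873 to 2187 in control, 1781 to 3020 in high-sugar, 1940 to 3251 in high-fat and 2178 to 2838 in high-fat high-sugar samples. Of these 7, 4 rose with fat and water (Adgre1, Clec4f, Vsig4 and Csf1r), 3 rose with both treatments, 2 rose with sugar on the normal diet, and 1 rose and 1 fell with sugar on the high-fat diet. Stellate cell and fibroblast markers (6 of 8 tested) summed to 3514 to 3752 in control and 3796 to 4727 in high-sugar samples, which did not overlap, and to 3296 to 4786 in high-fat and 3752 to 5592 in high-fat high-sugar samples. Among them Col1a1, a fibrillar collagen gene, rose with sugar on the high-fat diet (mean 12.2 to 44.8, adjusted p = 0.00464) and 1.83-fold with fat and sugar (adjusted p = 0.00385), Dcn rose 1.23-fold with sugar on the normal diet (adjusted p = 0.0376), and 3 of 6 rose with both treatments. Endothelial markers (7 of 7 tested) summed to 4211 to 5404 in control samples and to between 4887 and 6573 in the other groups. Of these, 2 rose and 2 fell with sugar on the normal diet and with both treatments, 2 fell with sugar on the high-fat diet and 1 rose with fat and water. Of the 8 tested cholangiocyte, lymphocyte and erythroid markers, at most 1 of a list was called in any comparison. The part of other cell types in the results below was not tested, and in whole tissue fewer cells of a type and less RNA per cell cannot be told apart. The slide of each array is not given in the sources used here, so slides were not tested either. Correlations between samples over all genes tested ran from 0.987 to 0.996 within groups and from 0.974 to 0.992 between groups.

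Promoter sequences from RefSeq (build GRCm38.p6) are shown for the 5 genes that passed a test in at least 1 comparison and have an entry, so that the genes that rose and those that fell can be set beside each other. Of the 9 genes 6 matched, with 7 entries, and Mat1a, Cth and Nnmt had none. Each line gives the 250 bases before the annotated start of transcription, 5′ to 3′ on the gene's own strand, which is the minus strand for all 5. The regions are chr17:46729166-46729415 for Gnmt, chr13:93637759-93638008 for Bhmt, chr2:155074498-155074747 for Ahcy, chr17:31637206-31637455 for Cbs and chr11:60811266-60811515 for Shmt1. Capitals mark matches on either strand to 5 short motifs.
Gnmt: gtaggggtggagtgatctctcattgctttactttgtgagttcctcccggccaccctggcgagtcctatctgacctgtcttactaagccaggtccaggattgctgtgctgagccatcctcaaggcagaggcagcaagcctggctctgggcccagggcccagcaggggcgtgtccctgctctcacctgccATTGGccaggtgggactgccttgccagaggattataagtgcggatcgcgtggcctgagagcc
Bhmt: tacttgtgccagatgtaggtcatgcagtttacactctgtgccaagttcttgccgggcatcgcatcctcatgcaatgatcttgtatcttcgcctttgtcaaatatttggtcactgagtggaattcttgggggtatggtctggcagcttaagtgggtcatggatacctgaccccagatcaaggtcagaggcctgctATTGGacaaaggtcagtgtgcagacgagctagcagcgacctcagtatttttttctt
Ahcy: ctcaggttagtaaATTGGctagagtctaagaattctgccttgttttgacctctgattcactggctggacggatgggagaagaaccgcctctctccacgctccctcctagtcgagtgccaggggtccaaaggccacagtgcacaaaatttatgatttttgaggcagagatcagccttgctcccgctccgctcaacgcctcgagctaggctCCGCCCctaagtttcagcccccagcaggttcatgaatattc
Cbs: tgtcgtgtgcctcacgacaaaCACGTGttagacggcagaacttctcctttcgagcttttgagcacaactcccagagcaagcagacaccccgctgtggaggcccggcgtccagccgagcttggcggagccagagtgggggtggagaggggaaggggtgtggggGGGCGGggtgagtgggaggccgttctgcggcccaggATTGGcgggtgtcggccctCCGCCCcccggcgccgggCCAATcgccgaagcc
Shmt1: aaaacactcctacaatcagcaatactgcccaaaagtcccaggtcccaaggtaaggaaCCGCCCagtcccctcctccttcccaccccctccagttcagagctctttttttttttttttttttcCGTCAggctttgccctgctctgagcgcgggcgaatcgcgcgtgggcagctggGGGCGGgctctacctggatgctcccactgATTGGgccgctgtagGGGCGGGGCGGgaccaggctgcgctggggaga

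The motifs searched were the TATA box (TATAAA), the CCAAT box (CCAAT), the GC box (GGGCGG), the E-box (CACGTG) and the core of the cyclic AMP response element (TGACG). Among 32851 promoters of the same length, the share with a match on either strand was 12.4% for the TATA box, 33.8% for the CCAAT box, 32.7% for the GC box, 6.02% for the E-box and 17.8% for the last. GC boxes stood in the Cbs, Ahcy and Shmt1 promoters and neither Gnmt nor Bhmt held one in this window. An E-box was found in the Cbs promoter, 229 bases before the start. Within Shmt1's cluster of capitals near the start, 2 GC boxes overlap. A CCAAT box on the opposite strand (read as ATTGG) began 62 bases before the start in Gnmt, 56 in Bhmt, 52 in Cbs and 47 in Shmt1, and 237 bases before it in Ahcy. Cbs held a further one on its own strand, 15 bases before the start. Over all promoters, 4.15% held one on that strand between 40 and 70 bases before the start; this window was drawn after the positions in these genes had been seen. These are matches of letters, not sites of binding.

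Levels below are the deposited normalised intensities, which are background-subtracted, on a linear scale and without a physical unit; 6.52 was the highest noise limit of any array. Differences are log2 differences of intensity plus an offset of 32 with the standard error (SE) of the limma model, n = 6 per group, and a fold is the same difference on a linear scale, so that folds of dim probes are understated. "Rose" and "fell" are used where the p-value adjusted over all 11115 genes was under 0.05. Where a gene had several probes, the one with the highest mean stands for the gene, and the other probes follow. The sugar comparison on the normal diet, the fat comparison with water and the comparison of both treatments with control all use the same 6 control samples.

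By the brightest probes, Shmt1 and Ahcy rose and Cbs and Gnmt fell with sugar on the normal diet, and the other 5 genes did not pass. Of these calls, that of Ahcy was close to the threshold (limma, adjusted p = 0.0438). It was lost when any of several single samples was left out. Those 4 of 9 genes stand beside 28.9% of all genes tested (14.8% higher and 14.0% lower). On the high-fat diet, sugar lowered Cbs alone among the brightest probes of the 9, where 30.6% of all genes were called (16.6% higher, 14.0% lower). The high-fat diet with water raised Cbs alone, against 17.9% of all genes (9.07% higher, 8.81% lower). With the sugar drink, the high-fat diet lowered Bhmt and Ahcy, against 7.87% of all genes (4.35% higher, 3.53% lower). Both treatments together, compared with control, raised Cth and Shmt1 and lowered Gnmt, against 35.5% of all genes (19.0% higher, 16.5% lower). All these calls are those of the brightest probe. With each probe tested by itself, another Ahcy probe fell with sugar on both diets, with fat and sugar and with both treatments. The Gnmt probe ILMN_1238783 fell with sugar on the high-fat diet and with both treatments. The Gnmt probe ILMN_1221105 fell with sugar on the normal diet, with fat and water and with both treatments. The other Shmt1 probe did not pass with sugar on the normal diet. It fell with sugar on the high-fat diet and with both treatments. The other Cbs probe also fell with sugar on both diets and with both treatments, but did not pass with fat and water.

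The median log2 difference of the 9 genes was 0.04 with sugar on the normal diet, -0.09 with sugar on the high-fat diet, 0.00 with fat and water, -0.03 with fat and sugar and -0.14 with both treatments. Over all genes the corresponding medians lay between -0.01 and 0.01. With sugar on the normal diet the members ran from -0.49 to 0.57, and with both treatments from -0.59 to 0.62. The interaction asks whether sugar did the same on both diets, as the high-fat value less the normal-diet value. There, 0 of 9 genes passed in limma, 1 had an unadjusted p under 0.05, and 2.47% of all genes were called (1.16% higher, 1.31% lower). For no member, then, was the sugar effect shown to differ between the diets.

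**Figure D1:**
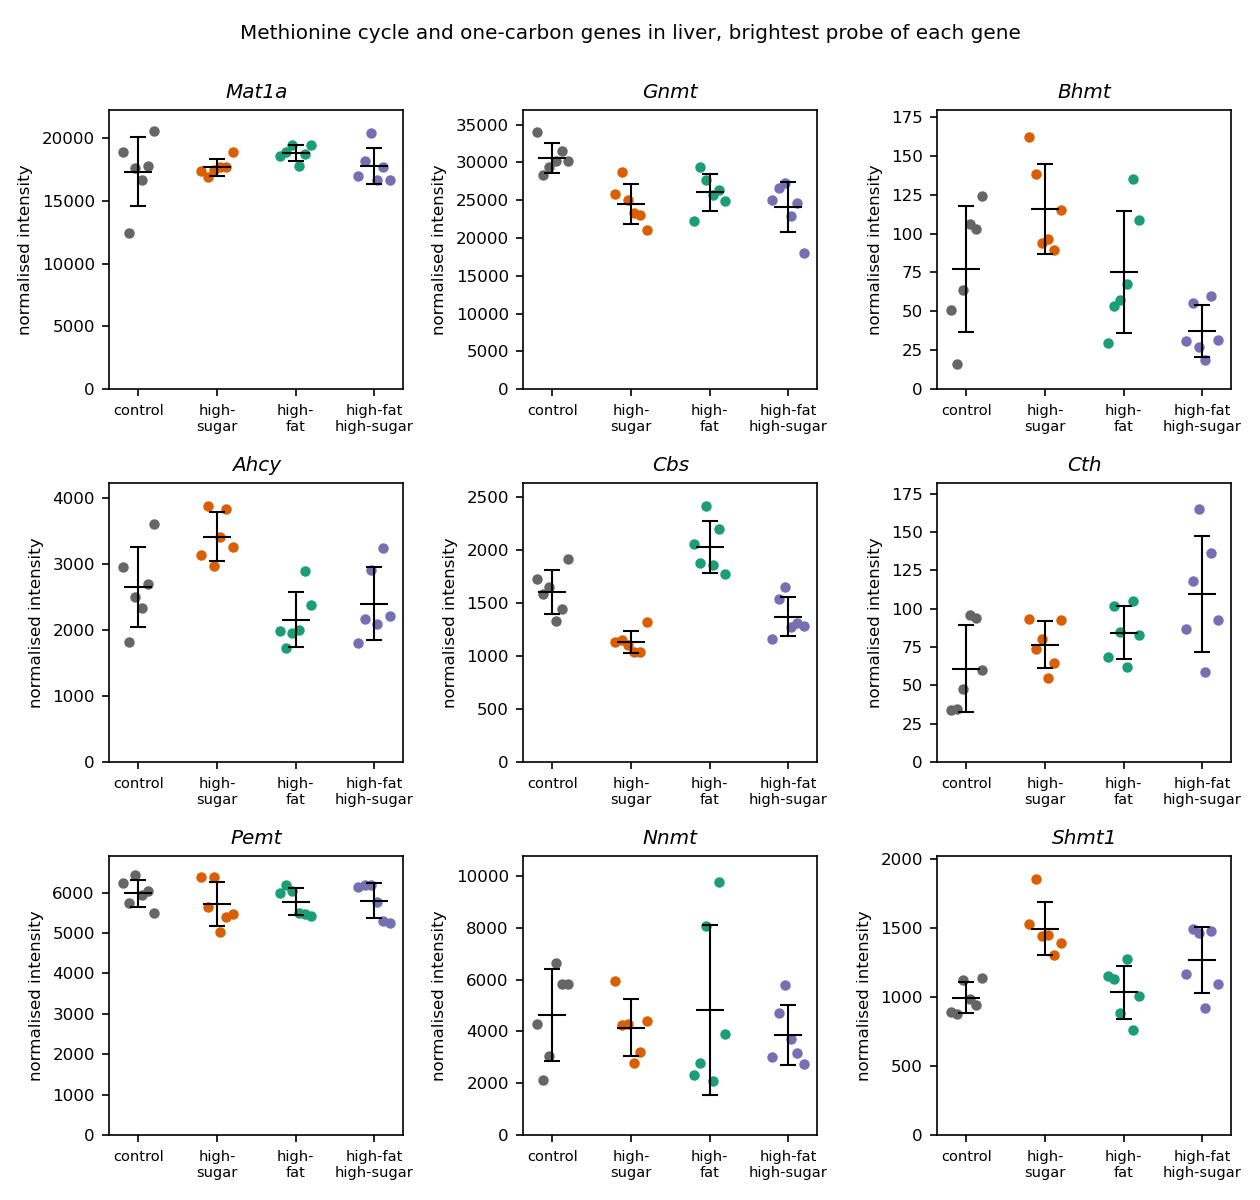
Normalised intensity of each of the 9 genes (its brightest probe) in every sample of the 4 groups. Points are samples and bars the mean ± SD of 6. Cbs was below every control sample in all high-sugar samples, Shmt1 above every control sample, and Bhmt in the high-fat high-sugar group below every high-sugar sample.

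**Figure D2:**
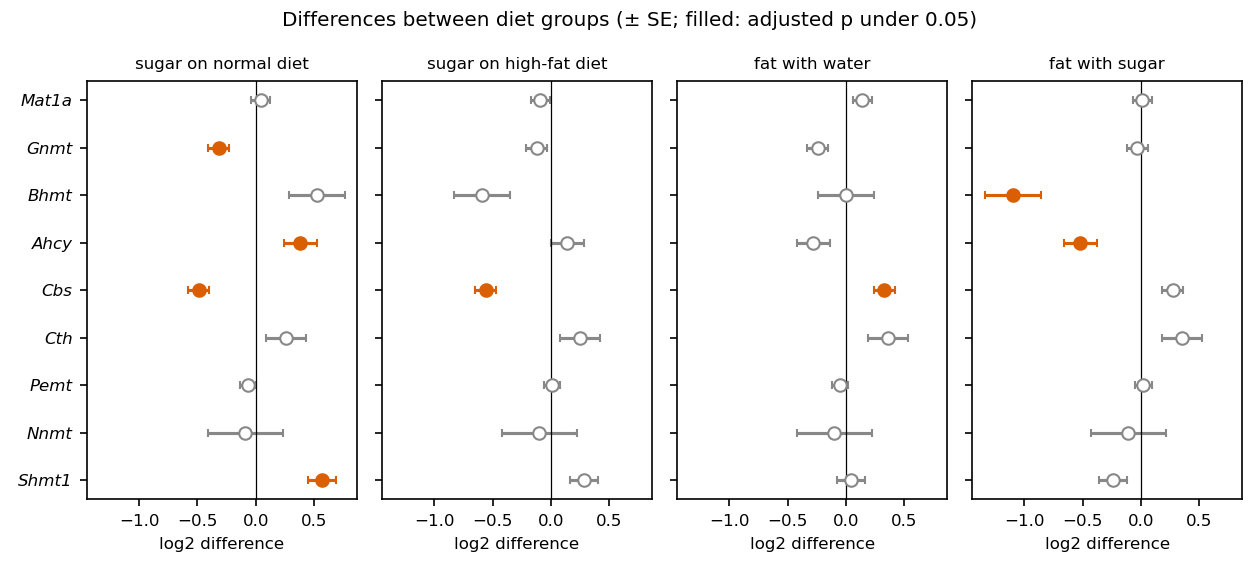
Log2 difference between diet groups with its SE for each of the 9 genes in the 4 single-treatment comparisons. Filled points passed the adjusted p threshold. Cbs lies left of 0 in both sugar comparisons and right of 0 in both fat comparisons.

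Mat1a encodes the liver form of methionine adenosyltransferase, which makes S-adenosylmethionine. Its intensity ran from 12466 to 20592 (median 17715) in control samples, from 16908 to 18874 (median 17598) in high-sugar, from 17830 to 19489 (median 18819) in high-fat and from 16693 to 20452 (median 17364) in high-fat high-sugar samples. The groups overlapped throughout. No comparison passed: the largest difference was 0.14 ± 0.08 with fat and water (adjusted p = 0.265). The spread was widest in control, 15.8% of the mean, and 3.73% in high-sugar samples. In control, replicate 2 read 12466 and the next lowest sample 16693.

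Gnmt encodes glycine N-methyltransferase, an abundant liver enzyme that spends S-adenosylmethionine to turn glycine into sarcosine. Its brightest probe (ILMN_2837816) read 28323 to 34061 (median 30192) in control samples. It read 21062 to 28732 (median 24194) in high-sugar, 22288 to 29462 (median 26035) in high-fat and 18070 to 27239 (median 24814) in high-fat high-sugar samples. Control was thus the highest of the 4 groups, and every high-fat high-sugar sample lay below every control sample, while 5 of 6 high-sugar and 5 of 6 high-fat samples did. Gnmt fell 1.25-fold with sugar on the normal diet (log2 -0.32 ± 0.09, adjusted p = 0.00607) and 1.28-fold with both treatments against control (-0.36 ± 0.09, adjusted p = 0.00213). With fat and water the difference was -0.24 ± 0.09 (adjusted p = 0.06). It passed at 0.0414 without high-fat replicate 2, 0.0498 without high-sugar replicate 2 and 0.0256 without high-fat high-sugar replicate 6. High-sugar and high-fat high-sugar samples are not in this comparison, and without either of those the difference stayed at -0.24. The value 34061, in 1 control sample, was the highest in the whole table, and the normalisation had set the top of the scale to nearly the same value on every array.

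The other 2 Gnmt probes gave part of the same picture. ILMN_1221105, annotated to the same transcript record, had medians of 6753 in control, 5079 in high-sugar, 4859 in high-fat and 4504 in high-fat high-sugar samples. When every probe was tested by itself, with p-values adjusted over 20216 probes, it fell with sugar on the normal diet (-0.43 ± 0.12, adjusted p = 0.00696), with fat and water (-0.44 ± 0.12, adjusted p = 0.0095) and with both treatments (-0.68 ± 0.12, adjusted p = 6.01e-05). ILMN_1238783, annotated to another transcript record, stood lower in the high-fat high-sugar group alone, at 812 to 1337 (median 855), against medians of 1855, 1460 and 1982 in control, high-sugar and high-fat samples. It fell with sugar on the high-fat diet (-1.0 ± 0.24, adjusted p = 0.00189) and with both treatments (-0.86 ± 0.24, adjusted p = 0.00567). The groups of this probe overlapped in both comparisons.

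Pemt, which methylates phosphatidylethanolamine to phosphatidylcholine and is a large user of S-adenosylmethionine in liver, had the smallest differences of the 9. Its single probe read 5492 to 6442 (median 5992) in control, 5032 to 6376 (median 5551) in high-sugar, 5430 to 6193 (median 5745) in high-fat and 5241 to 6177 (median 5949) in high-fat high-sugar samples. The 5 differences between groups lay between -0.07 and 0.02 with an SE of 0.07, and none passed.

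Nnmt encodes nicotinamide N-methyltransferase, which methylates nicotinamide. On the log2 scale used here its SEs of 0.32 were the largest of the 9 genes. As a share of the mean intensity, the SD in control samples was 38.4% for Nnmt, against 52.8% for Bhmt and 46.1% for Cth, both of which are dim. The probe ILMN_2885277 read 2121 to 6639 (median 5059) in control, 2783 to 5959 (median 4272) in high-sugar, 2076 to 9759 (median 3351) in high-fat and 2754 to 5800 (median 3443) in high-fat high-sugar samples. High-fat replicates 3 and 5, at 8079 and 9759, lay above all other samples of the 4 groups. No comparison passed with any of its 3 probes. On the log2 scale the 3 probes moved together within groups (r = 0.99 for each pair over 24 samples on the same arrays).

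Ahcy encodes adenosylhomocysteinase, which removes S-adenosylhomocysteine, an inhibitor of methyltransferases, by splitting it into homocysteine and adenosine. Its brightest probe (ILMN_1237919) read 1812 to 3601 (median 2599) in control and 2973 to 3881 (median 3332) in high-sugar samples. It read 1721 to 2894 (median 1991) in high-fat and 1802 to 3242 (median 2186) in high-fat high-sugar samples. The high-sugar group was the highest. All its samples lay above every high-fat sample, and it overlapped with the control and the high-fat high-sugar groups. By this probe Ahcy rose 1.31-fold with sugar on the normal diet (0.38 ± 0.14, adjusted p = 0.0438) and fell 1.44-fold with fat in the presence of sugar (-0.52 ± 0.14, adjusted p = 0.0216).

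The second Ahcy probe (ILMN_2852533), annotated to the same transcript record, moved the other way with sugar. It read 868 to 1431 (median 1179) in control, 620 to 896 (median 774) in high-sugar, 630 to 1243 (median 875) in high-fat and 450 to 665 (median 508) in high-fat high-sugar samples. It fell with sugar on the normal diet (-0.53 ± 0.13, adjusted p = 0.00404) and on the high-fat diet (-0.71 ± 0.13, adjusted p = 0.000213), with fat and sugar (-0.55 ± 0.13, adjusted p = 0.0109) and with both treatments (-1.08 ± 0.13, adjusted p = 1.07e-06). In the last comparison the groups did not overlap. The remaining Ahcy probe was below the noise limit on all arrays. The direction of Ahcy with sugar therefore depends on the probe, whereas both probes were lower with fat when the drink was sugar.

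The rise of Ahcy with sugar was close to the threshold. It was lost when control replicate 2, 3, 4 or 5 or high-sugar replicate 2, 4, 5 or 6 was left out, with adjusted p between 0.0557 and 0.131 and differences between 0.28 and 0.40. The fall with fat and sugar was lost without high-sugar replicate 2 or 5 or high-fat high-sugar replicate 1 or 4, with adjusted p between 0.0508 and 0.0732.

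Bhmt encodes betaine-homocysteine methyltransferase, which remakes methionine with betaine as methyl donor. Its single probe was dim, although liver is named above as a tissue where this enzyme is most abundant. How well the probe reads the Bhmt transcript was not tested, so the Bhmt values here are those of this probe. The probe read 16.1 to 124 (median 83.2) in control and 89.2 to 162 (median 106) in high-sugar samples. It read 29.8 to 135 (median 62.6) in high-fat and 18.7 to 59.6 (median 31.3) in high-fat high-sugar samples. It was above the noise limit in all 24 samples. The lowest high-sugar sample stood above the highest high-fat high-sugar sample. Bhmt fell 2.15-fold with fat when the drink was sugar (log2 -1.10 ± 0.24, adjusted p = 0.00369), the largest difference of any of the 9 genes in the 5 comparisons of groups. With water the corresponding difference was 0.00 ± 0.24 (adjusted p = 1).

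With sugar, Bhmt was higher by 0.52 ± 0.24 on the normal diet (adjusted p = 0.102) and lower by 0.59 on the high-fat diet (log2 -0.59 ± 0.24, adjusted p = 0.059). All 6 high-sugar samples lay above the control mean of 77.3, and all 6 high-fat high-sugar samples lay below the high-fat mean of 75.4. The groups overlapped in both comparisons. The difference between these sugar effects was -1.10 ± 0.33 and did not pass (adjusted p = 0.0697). It passed without control replicate 4 (adjusted p = 0.0453), control replicate 6 (0.0498) or high-fat replicate 1 (0.0319). The sugar effect on the normal diet passed without control replicate 6 (0.64, adjusted p = 0.0458). That on the high-fat diet passed without control replicate 2 (0.0255), high-fat replicate 1 (0.0193) or high-fat high-sugar replicate 2 (0.0461) or 5 (0.0421). Control replicate 2 is not in that comparison. Without it the difference stayed at -0.59, and the shared spread and the adjustment changed.

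With both treatments against control the Bhmt difference was -0.59 ± 0.24 (adjusted p = 0.0528). It passed without control replicate 1 (0.0462) or 2 (0.00376), high-fat replicate 1 (0.041) or 5 (0.0405), or high-fat high-sugar replicate 2 (0.0403) or 5 (0.0361). The high-fat samples are not in this comparison, and without either of those named the difference stayed at -0.59. Control replicate 2 was the lowest control sample, at 16.1.

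Cbs encodes cystathionine beta-synthase, which joins homocysteine to serine in the first step of transsulfuration. Its brightest probe (ILMN_2701582) read 1325 to 1910 (median 1615) in control and 1034 to 1323 (median 1116) in high-sugar samples. It read 1769 to 2410 (median 1960) in high-fat and 1163 to 1648 (median 1298) in high-fat high-sugar samples. On either diet, every sample with sugar lay below every sample with water. Cbs fell with sugar 1.41-fold on the normal diet (-0.49 ± 0.09, adjusted p = 0.000319) and 1.47-fold on the high-fat diet (-0.56 ± 0.09, adjusted p = 6.32e-05).

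The fat diet went with higher Cbs. With water Cbs rose 1.26-fold (0.33 ± 0.09, adjusted p = 0.0154), 3 of 6 high-fat samples lying above every control sample. With sugar the difference was 0.27 ± 0.09 and did not pass (adjusted p = 0.0858). Both treatments together left it at -0.22 ± 0.09 against control (adjusted p = 0.0672), which passed without control replicate 4 (0.0259) or high-fat high-sugar replicate 2 (0.045) or 3 (0.0245). The difference between the sugar effects on the 2 diets was -0.06 ± 0.13 (adjusted p = 0.85).

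The second Cbs probe (ILMN_1230318), on the same transcript record, gave the same order of groups, with medians of 1552 in control, 1015 in high-sugar, 1791 in high-fat and 1125 in high-fat high-sugar samples. It fell with sugar on the normal diet (-0.61 ± 0.11, adjusted p = 8.81e-05) and on the high-fat diet (-0.68 ± 0.11, adjusted p = 1.99e-05), with no overlap of groups in either. Its difference with fat and water was 0.27 ± 0.11 and did not pass (adjusted p = 0.0815), and with both treatments it fell by 0.41 on the log2 scale (adjusted p = 0.00392).

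Cth encodes cystathionine gamma-lyase, which releases cysteine from cystathionine. Of its 2 probes 1 was below the noise limit on all arrays, and the other was dim. That probe read 33.7 to 96.1 (median 53.5) in control, 54.5 to 93.1 (median 77.0) in high-sugar, 61.9 to 105 (median 83.7) in high-fat and 58.4 to 165 (median 106) in high-fat high-sugar samples. Control was the lowest group, yet all groups overlapped with it. Cth rose 1.53-fold with both treatments against control (0.62 ± 0.17, adjusted p = 0.00614). The single-treatment differences lay between 0.25 and 0.36 with an SE of 0.17, and none passed.

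Shmt1 encodes the cytosolic serine hydroxymethyltransferase, which moves a one-carbon unit between serine and folate. Its brightest probe (ILMN_1238412) read 878 to 1136 (median 965) in control and 1305 to 1853 (median 1447) in high-sugar samples, with no overlap. It read 758 to 1278 (median 1070) in high-fat and 923 to 1492 (median 1317) in high-fat high-sugar samples. Shmt1 rose 1.49-fold with sugar on the normal diet (0.57 ± 0.12, adjusted p = 0.00079). On the high-fat diet the difference was 0.28 ± 0.12 (adjusted p = 0.077), which passed without high-fat replicate 4 (0.0359) or high-fat high-sugar replicate 4 (0.0198). Against control, both treatments raised it by 0.33 ± 0.12 (adjusted p = 0.036). That call was lost without control replicate 1, 2, 4 or 5 or high-fat high-sugar replicate 2, 3 or 5, with adjusted p between 0.0523 and 0.0904.

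The second Shmt1 probe (ILMN_2726055), on the same transcript record, did not rise in any comparison. Its medians were 1067 in control, 894 in high-sugar, 1006 in high-fat and 774 in high-fat high-sugar samples. With sugar on the normal diet it differed by -0.19 ± 0.12 (adjusted p = 0.246). It fell with sugar on the high-fat diet (-0.31 ± 0.12, adjusted p = 0.0464) and with both treatments (-0.45 ± 0.12, adjusted p = 0.00374), where the first probe had risen.

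Over the 16 probes tested by themselves, 7 were called with sugar on the normal diet (2 higher, 5 lower), beside 28.0% of the 20216 probes tested. With sugar on the high-fat diet 5 were called, all lower, beside 29.6%. Fat with water gave 2 calls (1 higher, 1 lower) beside 15.6%, and fat with sugar gave 3, all lower, beside 7.05%. Both treatments against control gave 8 (2 higher, 6 lower) beside 33.4%, and the interaction gave 0 beside 2.52%.

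The disagreement between probes was measured on the same 24 samples as the tests above, so it is no independent check of them. For each of the 9 pairs of probes of 1 gene, the log2 ratio of the pair was taken within each array and compared between groups with a two-sided exact permutation test, adjusted over 45 tests. Each test had 924 ways to divide 12 samples, so that 0.00216 was the smallest p it could give. Of the 45 tests 21 passed. This test was not run on the other probe pairs of the array, so the count has no share over all pairs beside it. The tests share groups and probes and are not independent.

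For Ahcy the ratio of ILMN_1237919 to ILMN_2852533 was higher with sugar by 0.91 on the normal diet and by 0.85 on the high-fat diet (exact permutation p = 0.00216, adjusted p = 0.00748 for each). With fat it differed by 0.09 with water (exact permutation p = 0.364) and 0.02 with sugar (exact permutation p = 0.892). For Shmt1 the ratio of ILMN_1238412 to ILMN_2726055 was higher with sugar by 0.76 and 0.59 (exact permutation, adjusted p = 0.00748 for each). With fat it was higher by 0.18 with water (exact permutation, adjusted p = 0.0371) and by 0.02 with sugar (adjusted p = 0.879).

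For Nnmt, none of whose probes passed by itself, the ratio of ILMN_2885277 to ILMN_2544305 was lower with sugar, by -0.38 and -0.36 on the log2 scale (exact permutation, adjusted p = 0.00748 for each), and differed by -0.04 and -0.02 with fat. The ratio of ILMN_2544305 to ILMN_2665411 was higher with sugar by 0.52 and 0.70 (exact permutation, adjusted p = 0.00748 for each). ILMN_2544305 is annotated to another transcript record than the other Nnmt probes. The Gnmt ratio of ILMN_2837816 to ILMN_1238783 was higher with sugar on the high-fat diet by 0.88 and with fat and sugar by 0.69 (exact permutation, adjusted p = 0.0122 for each). For Cbs the ratio was higher by 0.12 with sugar on either diet (exact permutation, adjusted p = 0.0893 and 0.0936) and by 0.18 with both treatments (adjusted p = 0.00748).

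Ratios that separate groups fully were common on the array when sugar was compared. Of the 8166 pairs of probes of 1 gene, 12% had groups that did not overlap with sugar on the normal diet and 14.8% on the high-fat diet, against 2.93% with fat and water and 2.11% with fat and sugar. With both treatments against control it was 10.9%. Among the 9 pairs of these genes 4 had groups that did not overlap in each sugar comparison (Ahcy, Shmt1 and 2 pairs of Nnmt), 0 in each fat comparison and 5 with both treatments. Pairs of 1 gene share a probe and are not independent. What each probe reads within its transcript was not tested, as probe sequences were not used here.

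**Figure D3:**
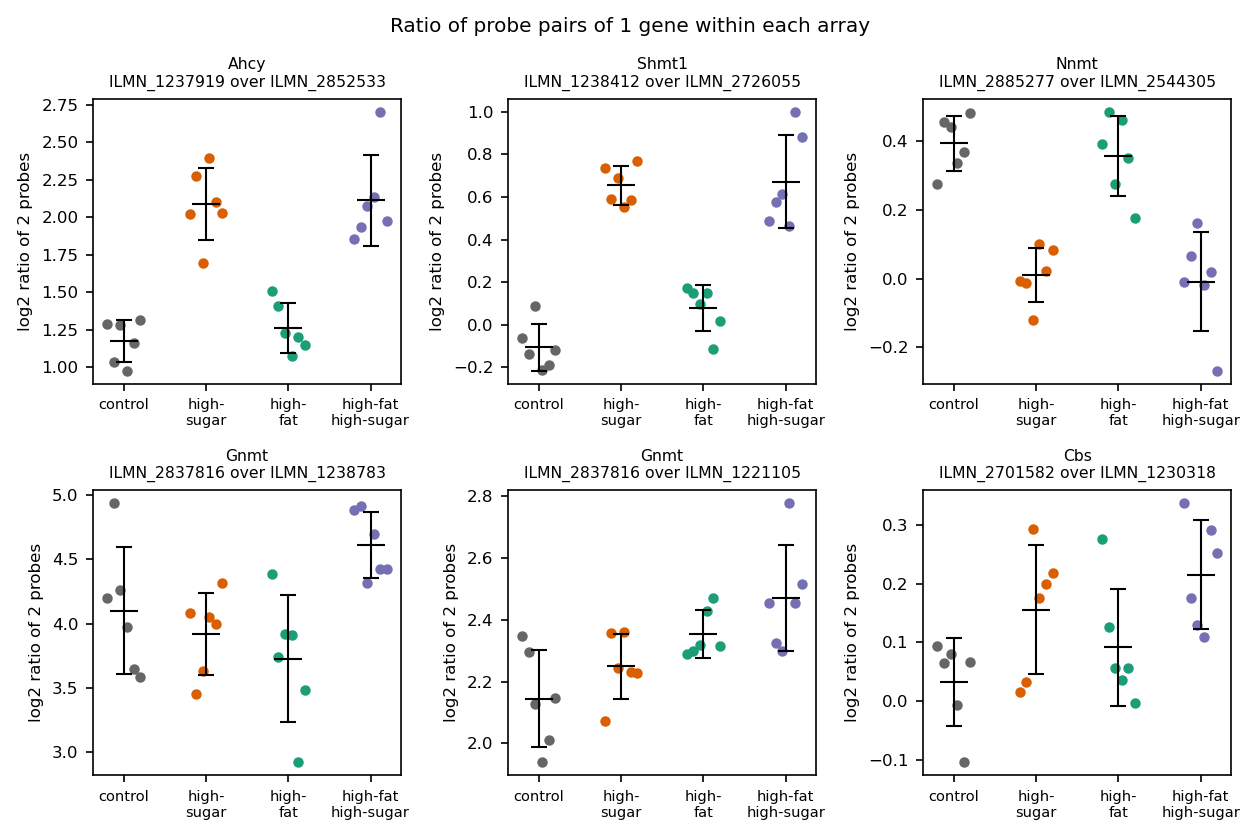
Log2 ratio of probe pairs of 1 gene within each array, for 6 pairs, by group. Points are samples and bars the mean ± SD of 6. For Ahcy, Shmt1 and the Nnmt pair shown, the samples with sugar lie apart from the samples with water on both diets.

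Other genes of the same pathways were counted in 6 lists that hold 89 genes besides the 9, of which 68 were tested. With sugar on the normal diet 12 rose and 10 fell (32.4%), and on the high-fat diet 12 rose and 14 fell (38.2%). The fat diet with water came with 4 rises and 13 falls (25%), and with sugar 1 rise and 4 falls (7.35%). Both treatments against control gave 10 rises and 12 falls (32.4%), and 4 genes passed the interaction (5.88%). Over all genes the corresponding shares were 28.9%, 30.6%, 17.9%, 7.87%, 35.5% and 2.47%.

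Among 11 tested genes of methionine and S-adenosylmethionine metabolism, sugar on the normal diet raised Bhmt2, a homocysteine methyltransferase that uses S-methylmethionine, 1.40-fold (adjusted p = 0.0056) and Mtap, which recycles methylthioadenosine to methionine, 1.31-fold (adjusted p = 7e-04). Ahcyl2, a relative of Ahcy, fell 1.30-fold (adjusted p = 0.000206). Bhmt2 went from a mean of 1800 to 2480. On the high-fat diet Odc1, the first enzyme of polyamine synthesis, rose 1.35-fold with sugar (adjusted p = 0.00291) and Ahcyl2 fell 1.15-fold (adjusted p = 0.0312). Srm, spermidine synthase, fell with fat both with water (1.25-fold, adjusted p = 0.00901) and with sugar (1.33-fold, adjusted p = 0.00345), and Mtap rose with fat and water (1.25-fold, adjusted p = 0.00616).

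Of 8 other tested methyltransferases, most of which act on small molecules, sugar on the normal diet lowered Icmt, which methylates prenylated proteins, 1.52-fold (adjusted p = 0.000164). It raised Coq5, of ubiquinone synthesis, 1.20-fold (adjusted p = 0.0105) and Pcmt1, a protein repair enzyme, 1.15-fold (adjusted p = 0.037). On the high-fat diet sugar lowered As3mt, arsenite methyltransferase, 1.89-fold (adjusted p = 5.99e-05) and Coq3, and raised Inmt, an amine methyltransferase, 1.41-fold (adjusted p = 0.00184). Fat with water, which shares the high-fat samples, moved As3mt 1.60-fold up (adjusted p = 0.00312) and Inmt 1.47-fold down (adjusted p = 0.00134). It also lowered Icmt and Gamt, which makes creatine. With fat and sugar 0 of 8 passed in limma, with 1 at an unadjusted p under 0.05. Icmt passed the interaction (0.65 ± 0.15, adjusted p = 0.0239).

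In the transsulfuration list, 11 genes were tested. Gclm, the modifier subunit of the enzyme that starts glutathione synthesis, rose with sugar 1.74-fold on the normal diet (mean 399 to 712, adjusted p = 8.4e-07) and 2.03-fold on the high-fat diet (294 to 632, adjusted p = 1.98e-08), and fell 1.32-fold with fat and water (adjusted p = 0.00389). Ethe1, a persulfide dioxygenase of mitochondria, fell with sugar on both diets, 1.42-fold (adjusted p = 0.00305) and 1.60-fold (adjusted p = 0.00016). Sqor, which oxidises hydrogen sulfide, rose with sugar on both, from a mean intensity of 6.57 to 26.6 on the normal diet and from 1.24, under the noise limit, to 22.8 on the high-fat diet. Gss, glutathione synthetase, fell with sugar on the normal diet (1.22-fold, adjusted p = 0.0139) and with fat and water (1.28-fold, adjusted p = 0.00539), and passed the interaction (0.48 ± 0.12, adjusted p = 0.0367). With fat and sugar 0 of 11 passed in limma, with 1 at an unadjusted p under 0.05.

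Of 17 tested folate and serine-glycine genes, sugar on the normal diet raised Shmt2, the mitochondrial partner of Shmt1, 1.54-fold (mean 236 to 379, adjusted p = 1.47e-05). It also raised the folate carrier Slc46a1 1.36-fold (adjusted p = 5.94e-05) and Ftcd, which joins histidine breakdown to folate, 1.38-fold (adjusted p = 0.00131), and lowered Mthfs 1.35-fold (adjusted p = 0.000216). On the high-fat diet sugar raised Slc46a1 1.38-fold (adjusted p = 3e-05) and Ftcd 1.43-fold (adjusted p = 0.000397), and lowered Mthfs 1.34-fold (adjusted p = 0.000256). Slc19a1, the reduced folate carrier, fell with fat 1.5-fold with water (adjusted p = 0.00123) and 1.33-fold with sugar (adjusted p = 0.031). Aldh1l1, which oxidises formyl-tetrahydrofolate, fell 1.54-fold with fat and water (adjusted p = 0.00678). With fat and sugar Shmt2 fell 1.30-fold (adjusted p = 0.00914) and Mthfd2 rose 1.59-fold (adjusted p = 0.0105). Fpgs, which adds glutamate to folates, rose 1.41-fold with fat and water (adjusted p = 0.00175). It fell 1.33-fold with sugar on the high-fat diet (adjusted p = 0.00433) and passed the interaction (-0.58 ± 0.15, adjusted p = 0.0363).

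Choline and phosphatidylcholine genes were tested for 12 of 13 listed. Cept1, an enzyme of the last step of phosphatidylcholine synthesis from choline, rose with sugar 1.80-fold on the normal diet (mean 236 to 449, adjusted p = 1.75e-06) and 1.89-fold on the high-fat diet (260 to 520, adjusted p = 3.54e-07). Pcyt1a, the rate-setting step of that route, fell with sugar on both, 1.28-fold (adjusted p = 0.00728) and 1.41-fold (adjusted p = 0.000395), and Chka, choline kinase, which was dim, fell on both. Sardh and Dmgdh, which take methyl groups from sarcosine and dimethylglycine, fell with fat and water (Sardh 1.44-fold, adjusted p = 0.00299). Of the fat with sugar comparison, 0 of 12 passed in limma, with 4 at an unadjusted p under 0.05.

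Among 9 tested genes of nicotinamide and NAD metabolism, Aox3, an aldehyde oxidase, had mean intensities of 5890 in control, 7600 in high-sugar, 2380 in high-fat and 6620 in high-fat high-sugar samples. It rose 2.83-fold with sugar on the high-fat diet (adjusted p = 2.36e-08) and fell 2.53-fold with fat and water (adjusted p = 4.4e-07), and it passed the interaction (1.13 ± 0.20, adjusted p = 0.00318). Naprt, which makes a nicotinate nucleotide, rose with fat and water (1.20-fold, adjusted p = 0.0438) and fell with sugar on the high-fat diet (1.28-fold, adjusted p = 0.00344). Nmrk1 fell with fat and water (1.47-fold, adjusted p = 0.00703). No gene of the list passed with sugar on the normal diet or with fat and sugar in limma; 2 and 1 had an unadjusted p under 0.05.

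**Figure D4:**
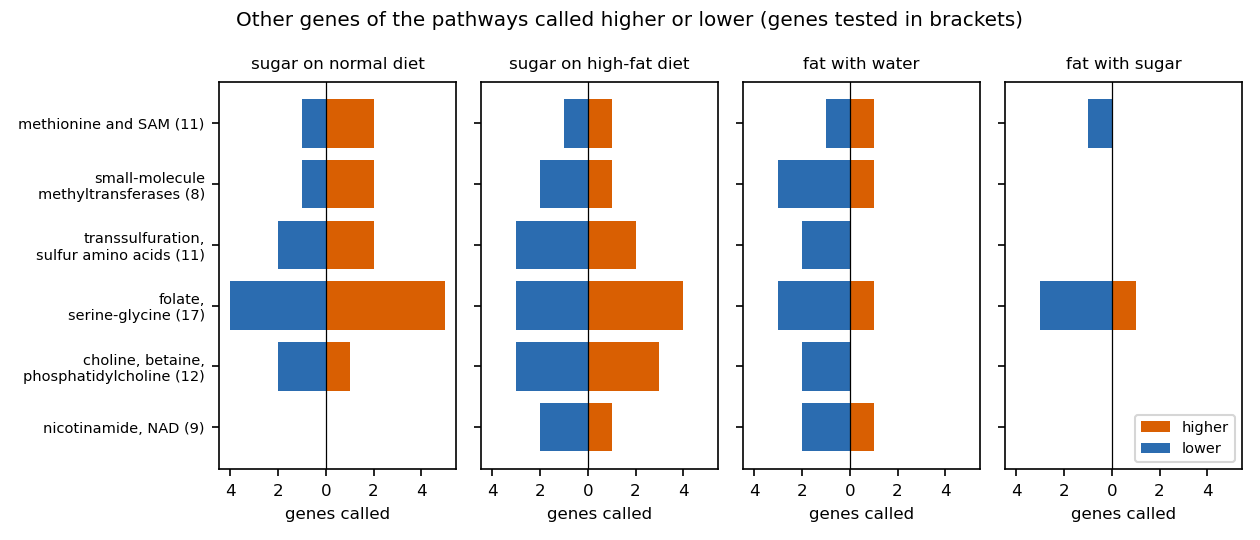
Number of tested genes called higher (right) or lower (left) in each of the 6 pathway lists, without the 9 genes themselves, for the 4 single-treatment comparisons. Fat with sugar gave the fewest calls, 5 in all.

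Within groups, the 9 genes moved together only loosely. Pearson's r of the deviations of log2 values from the group means, over 24 samples, had a median of 0.27 over the 36 pairs of genes and ran from -0.39 (Ahcy and Pemt) to 0.64 (Mat1a and Ahcy), where the median between the 9 and all other genes was 0. Bhmt and Nnmt had an r of 0.63, and Cth had 0.61 with each of these. Control replicate 2 was the lowest control sample of Mat1a, Bhmt, Ahcy and Nnmt, and the correlations were not recomputed without it. Among all other genes the closest to Cbs were Zfp275 (r = 0.73), Med24 (0.71) and Dpp9 (0.70). Gnmt was closest to Oma1 (0.85), Bhmt to Them7 (0.88), Ahcy to Abat (0.82), Cth to Ramac (0.84) and Shmt1 to Sucnr1 (0.80). Mat1a was closest to Bcl9l (0.86), Pemt to Nqo2 (0.78) and Nnmt to Tmem86b (0.84). These values share arrays and normalisation and are a description, and the closest genes were picked out of 11115 as the highest.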

How the data were processed

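Liver RNA was measured in 24 samples on an Illumina bead array. Per the submitters' processing notes the authors used GenomeStudio 2011.1; further steps are not given in the sources used here. The deposited values are intensities of 45281 probes on a linear scale. They were background-subtracted (37.7% negative, lowest -13.0) and quantile-normalised (sorted columns within 0.231), as read from the values. A deposited non-normalised table of 24 signal columns, whose names were matched to no sample, was not used here.

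An offset of 32 was added and log2 taken. Noise was the root mean square of an array's negative values. Probes above 1.645 times the noise on at least 6 arrays were kept (20216; between 17976 and 18010 above it per array, which the normalisation fixes, so the number of arrays limits the precision). For each of 11115 genes the probe with the highest mean was tested. Symbols came from the platform annotation, and 34807 of the 34885 probes with a single symbol were given the current name. No build is given for the array, so no gene coordinates are printed.

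The model, fitted with limma 3.58.1 (R 4.3.3), had 1 mean per group, used all 24 samples and empirical Bayes with an intensity trend; p-values were two-sided and adjusted by Benjamini-Hochberg within each of 6 contrasts, with a threshold of 0.05. The fit was tested on simulated data. Replicate numbers did not pair the samples. Named were all 9 genes with every probe, and for each gene the closest other genes by within-group correlation. From each pathway list, genes were named out of the up to 4 passing ones with the smallest adjusted p in a comparison. Not all of those are named. Alternatives were other offsets, a floor, other filters, cyclic loess, other spread models, array weights, only the groups compared, a block for replicate number, and each sample left out. The members, lists and tests were chosen with earlier results of these data known.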

Additional observations from a re-analysis of the deposited data

Results flagged for a closer look

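Neither sugar effect on Bhmt passed the test (limma, adjusted p = 0.102 on the normal and 0.059 on the high-fat diet). All 6 high-sugar samples lay above the control mean and all 6 high-fat high-sugar samples lay below the high-fat mean. The groups overlapped in both comparisons. Above every control sample lay 2 of 6 high-sugar samples, and below every high-fat sample lay 2 of 6 high-fat high-sugar samples. The difference between the effects was -1.10 on the log2 scale for its only probe, which was dim. That difference did not pass the test (limma, adjusted p = 0.0662 over probes and 0.0697 over genes). No sample of the 16 tested probes lay far enough from its group to exceed Dixon's 95% critical ratio, in 64 groups tested, where chance would flag about 1 in 20.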

How the results depend on the processing

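The numbers of calls with each probe tested by itself were 5658 and 5980 with sugar on the normal and the high-fat diet, 3154 and 1425 with fat and water or sugar, 509 for the interaction and 6757 with both treatments, since more features were then tested; array weights gave 453 for the interaction, against 275. With 1 sample left out, the genes called for fat with sugar ran from 535 (without high-fat high-sugar replicate 1) to 959, against 875, and for the interaction from 161 (without high-fat high-sugar replicate 4) to 449 (without control replicate 4); it was 170 and 175 without control replicates 1 and 3, and 177 without high-sugar replicate 2. Of the 9 genes, array weights and a fit of only the 2 groups each called 2 with sugar on the high-fat diet (adding Bhmt), and the latter called 2 with fat and water (adding Gnmt). With 1 sample left out these counts ran from 1 to 2, as did the count for fat with sugar, and that for the interaction from 0 to 1. The replicate block gave 2 for fat with water (Gnmt, adjusted p = 0.0418) and a Bhmt call with both treatments (adjusted p = 0.0491); correlations between samples of 1 number ran from -0.27 to 0.29, and 3 of 24 samples correlated best with their own number. Ahcy with sugar on the normal diet was lost with a floor of 16 (adjusted p = 0.078), no filter (0.0598) or cyclic loess (0.0514), and Shmt1 with both treatments with the floor (0.0571), no filter (0.0543) or array weights (0.0765). Array weights added calls of Cbs with fat and sugar (0.0406) and of Bhmt with both treatments (0.0386). The calls of Cbs in 3 comparisons, Gnmt in 2, and of Shmt1 with sugar, Bhmt with fat and sugar and Cth with both treatments held in every setting run. Every setting read the brightest probe of each gene, so the choice of probe was not varied. The other Shmt1 probe did not pass with sugar on the normal diet (limma, adjusted p = 0.246), nor the other Cbs probe with fat and water (0.0815). That Cbs probe did fall with sugar on both diets. Of the other Gnmt probes, ILMN_1221105 fell in both comparisons and ILMN_1238783 only with both treatments. Signs turned only for small differences that never passed: the interaction of Cth (0.02 with an offset of 64 and with cyclic loess) and of Nnmt (0.11 with array weights), and, with 1 sample left out, Cth (-0.11 to 0.11) and Nnmt (-0.20 to 0.24) for the interaction, Nnmt with sugar (-0.30 to 0.03; on the high-fat diet -0.29 to 0.15) and with fat and water (-0.35 to 0.09), Bhmt with fat and water (-0.22 to 0.14, and -0.04 to 0.06 over the other settings, around 0.00), Mat1a with sugar (-0.05 to 0.10), with fat and sugar (-0.03 to 0.03) and with both (-0.04 to 0.10), Pemt with sugar on the high-fat diet (-0.01 to 0.03) and with fat and sugar (-0.01 to 0.06), Shmt1 with fat and water (-0.02 to 0.13) and Gnmt with fat and sugar (-0.07 to 0.05). The cause of these changes was not tested. A slide block was not run, because no slide could be tied to a sample. The ratios of probes were tried with other offsets and cyclic loess, chosen after seeing the data. Bhmt and Cth were read by dim probes, whose differences grow with a smaller offset.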
